A study of Mus musculus with 6 samples.

Results

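Potassium channels end the action potential of the heart cell by letting potassium flow out, and 9 mouse genes of that machinery are described here. They are the pore subunits Kcnq1, Kcnh2, Kcnd2, Kcnd3, Kcna5, Kcnj2 and Kcnk3 and the auxiliary subunits Kcne1 and Kcnip2, out of 18193 genes measured. The set was selected on the large difference of Kcne1 between the genotypes compared here, and channels with a known role in cardiac repolarisation were added with earlier results of these data in view. Levels and differences of the members are therefore given as a description, with no p-value. All 9 members were found, on 20 probe sets (an array element is a set of probes read as 1 value), and 5 members had more than 1. Unless stated, a gene is read on its brightest probe set, by the mean of the 6 arrays.

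Both groups were hearts of mice 3 months old that lack desmin, a protein of the intermediate filaments that tie muscle cells' contractile units together. The control group had the genotype Des-/- on the 129SV strain (3 arrays), and the other group, TNFαDes-/-, also overexpressed the inflammatory cytokine TNF-α in the heart on a mixed 129SV/C57 strain (3 arrays). No heart with desmin was included, so nothing here speaks to the loss of desmin itself, and the transgene cannot be told apart from the strain background. No label used here names the promoter of the transgene. The labels speak of RNA pooled from 3 hearts per genotype, so the 3 arrays of a group may be repeats of 1 pool, and the spread between them may be technical.

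In heart muscle, Kcnq1 forms the pore of the slow delayed rectifier current, and Kcne1 is the small membrane protein that joins it and slows its opening. Kcnh2 forms the rapid delayed rectifier. Kcnd2 and Kcnd3 form the fast transient outward current, the main early repolarising current of mouse ventricle, and Kcnip2 is the calcium-binding partner that carries these pores to the membrane. Kcna5 carries a slowly inactivating outward current, Kcnj2 the inward rectifier that holds the resting potential, and Kcnk3 a background leak. Kcne1 is known to be strong in the newborn mouse heart and in the conduction system.

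The values are log2 expression on Affymetrix arrays, so a difference of 1 log2 unit is a doubling. Each difference is TNFαDes-/- minus Des-/-, with the standard error (SE) of a limma fit over all genes. Levels of different genes are not compared, because probe sets differ in brightness. Array medians lay between 5.02 and 5.08, and a probe set below them is not shown to be above background. Des-/- replicate 1 stood apart from Des-/- replicates 2 and 3. The SD of the log2 difference between replicates 2 and 3 was 0.163, against 0.338 between replicate 1 and either of them. Bright probe sets read lower on those 2 arrays, where the brightest probe set read 14.20 and 14.23, against 14.95 to 15.04 on the other 4 arrays. The log2 ratio of 3' to 5' Gapdh probe sets, a measure of RNA quality, was -0.05 to 0.01 in Des-/- and 0.28 to 0.34 in TNFαDes-/-. For Actb it was 0.41 to 0.57 in Des-/- and 0.62 to 0.79 in TNFαDes-/-. On both genes the groups were separate, so this measure cannot be told apart from genotype. Its part in the results was not tested.

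The auxiliary members Kcne1 and Kcnip2 stood higher in TNFαDes-/- hearts, as did, by less, the pores Kcnq1 and Kcnh2. Kcnd2, a pore of the transient outward current, stood lower. Kcne1 was 23.9-fold and Kcnip2 2.85-fold higher. Kcnq1 and Kcnh2 were each 1.38-fold higher, Kcnd2 was 1.48-fold lower, and Kcna5, Kcnj2, Kcnk3 and Kcnd3 had groups that overlapped. In the fit over all genes, 4 of the 9 members passed an adjusted p of 0.05 in the higher and 1 in the lower direction, where 15.2% and 6.05% of all genes did so (21.3% in either direction). Of the members 5 had groups that did not overlap, against 38.0% of all genes. Since the contrast helped to choose the set, nothing is read from these counts.

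**Figure D1:**
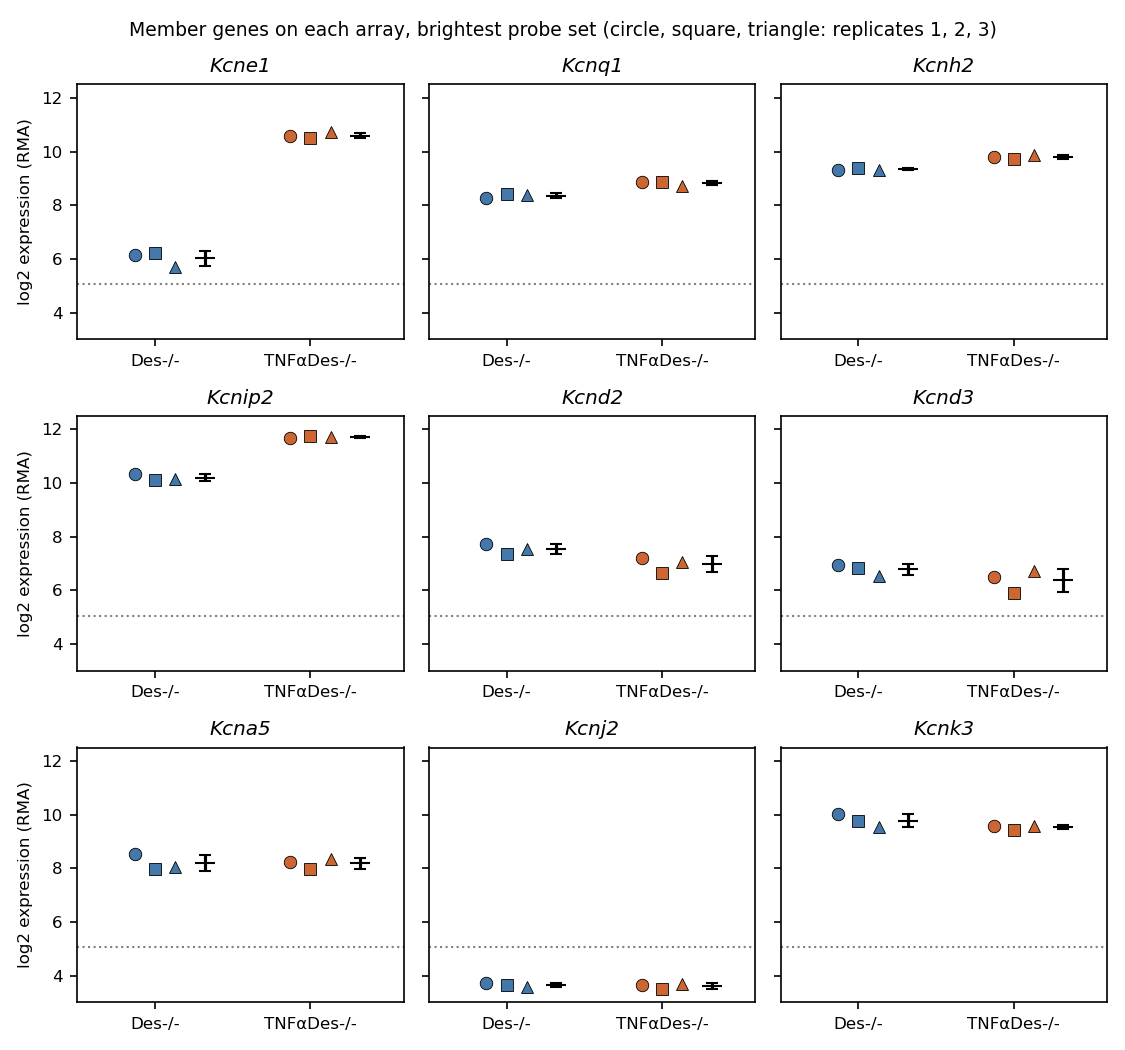
Log2 expression of the 9 members on each of the 6 arrays, on the brightest probe set of each gene. Circles, squares and triangles are replicates 1, 2 and 3, bars show the group mean and SD (n = 3), and the dotted line is the mean of the array medians. Kcne1 moves from 6.02 to 10.60 and Kcnip2 from 10.20 to 11.71, Kcnd2 moves down from 7.54 to 6.97, and Kcnj2 lies below the line on every array.

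Kcne1 read 6.15, 6.21 and 5.70 on Des-/- replicates 1 to 3, and 10.58, 10.50 and 10.72 on TNFαDes-/- replicates 1 to 3. The lowest TNFαDes-/- array lay 4.29 log2 units above the highest Des-/- array, a gap far wider than the spread in either group. Means were 6.02 ± 0.28 and 10.60 ± 0.11 (SD, n = 3), and the difference was 4.58 ± 0.15 (SE). It ranked number 3 of 18193 genes among rises. The other Kcne1 probe set read 5.26, 5.16 and 5.26 in Des-/- and 7.78, 7.96 and 7.71 in TNFαDes-/-, a difference of 2.59 ± 0.11. Both probe sets had separate groups, but they gave folds of 23.9 and 6.02. The Des-/- levels lay only a little above the array medians, so the size of the fold is uncertain. Over all alternative settings the difference stayed between 3.58, as the mean of both probe sets, and 4.68.

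Kcnq1, the pore that Kcne1 joins, has 1 probe set, with 8.26, 8.44 and 8.37 in Des-/- and 8.86, 8.88 and 8.72 in TNFαDes-/-. All 3 TNFαDes-/- arrays were higher, by a gap of 0.29, and the difference was 0.47 ± 0.10 (SE). This is small beside the scale of the arrays: it was 0.28 after quantile normalization, which gives all arrays 1 distribution, and 0.26 after cyclic loess, which evens pairs of arrays over intensity. Under neither did the gene pass the threshold, nor without TNFαDes-/- replicate 1 (0.45). With Des-/- replicate 1 left out before quantile normalization, the difference was 0.15.

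Kcnh2, the pore of the rapid delayed rectifier, read 9.32, 9.38 and 9.31 in Des-/- and 9.79, 9.73 and 9.87 in TNFαDes-/- on its 1 probe set. The groups were 0.35 apart, and the difference was 0.46 ± 0.09 (SE). It shrank to 0.22 after quantile normalization, 0.20 after cyclic loess, and 0.09 with quantile normalization and Des-/- replicate 1 left out, and passed the threshold under none of these. The higher readings of both delayed rectifier pores thus depend on how the arrays are scaled.

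Kcnip2, the partner of the transient outward pores, read 10.34, 10.13 and 10.14 in Des-/- and 11.69, 11.74 and 11.70 in TNFαDes-/-. The groups were 1.35 apart, with means of 10.20 ± 0.12 and 11.71 ± 0.03 (SD, n = 3) and a difference of 1.51 ± 0.10 (SE). A dimmer Kcnip2 probe set gave 9.64, 8.77 and 8.85 against 10.13, 10.26 and 10.24, a difference of 1.12 ± 0.21 with Des-/- replicate 1 as its high control array. The third read 4.70 to 5.15 in Des-/- and 4.85 to 5.29 in TNFαDes-/-, near the array medians and with overlapping groups (0.16 ± 0.16). The 2 bright probe sets had separate groups in the same direction. The main difference was 1.16 after quantile normalization, and the mean of the 3 probe sets gave 0.93.

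Kcnd2, a pore of that current, stood lower. Its main probe set read 7.73, 7.34 and 7.55 in Des-/- and 7.20, 6.64 and 7.08 in TNFαDes-/-. The groups were 0.14 apart, with TNFαDes-/- replicate 2 the lowest array, and the difference was -0.57 ± 0.17 (SE). A dimmer one read 7.93, 6.92 and 6.99 against 6.33, 5.67 and 6.61 (-1.08 ± 0.31), and another 6.57, 6.28 and 6.28 against 5.72, 5.71 and 5.98 (-0.57 ± 0.13). These 3 probe sets had separate groups in the same direction, and the fourth read 3.61 to 3.85 on all 6 arrays, below every array's median. Kcnd2 no longer passed the threshold without Des-/- replicate 1 (-0.47), Des-/- replicate 3 (-0.57) or TNFαDes-/- replicate 1 (-0.69), 2 (-0.40) or 3 (-0.62), nor with median centring (-0.55). It did pass after quantile normalization (-0.68).

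Kcnd3, the companion pore, read 6.96, 6.84 and 6.54 in Des-/- and 6.49, 5.90 and 6.73 in TNFαDes-/-. The groups overlapped, and the difference of -0.40 ± 0.21 (SE) did not pass under any setting tried. Its other 3 probe sets lay between 3.66 and 4.98, below every array's median, and 1 of them had separate groups (-0.35 ± 0.12). The sign matched that of Kcnd2, but with this spread between arrays no difference was shown on the main Kcnd3 probe set.

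The upstream promoters of Kcnip2 and Kcnd2 are shown because these partners of 1 current differed in opposite directions. Promoter sequences from RefSeq (GRCm38.p6, a C57BL/6J reference and not the 129SV strain) matched 6 of the 9 members, and Kcne1, Kcnq1 and Kcnk3 were not among them. Each run is the 250 bases before the annotated start, 5′ to 3′ on the gene's strand, at chr19:45816064-45816313 (minus strand) for Kcnip2 and chr6:21215096-21215345 (plus strand) for Kcnd2. Capitals mark CACCC and GGGCGG on either strand, the core letters bound by KLF and Sp family factors. The motifs do not overlap in these runs.
Kcnip2: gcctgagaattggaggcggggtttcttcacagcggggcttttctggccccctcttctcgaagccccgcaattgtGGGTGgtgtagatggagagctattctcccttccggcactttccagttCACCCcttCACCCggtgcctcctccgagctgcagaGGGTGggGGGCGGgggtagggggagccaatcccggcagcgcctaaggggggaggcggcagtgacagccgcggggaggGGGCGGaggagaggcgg
Kcnd2: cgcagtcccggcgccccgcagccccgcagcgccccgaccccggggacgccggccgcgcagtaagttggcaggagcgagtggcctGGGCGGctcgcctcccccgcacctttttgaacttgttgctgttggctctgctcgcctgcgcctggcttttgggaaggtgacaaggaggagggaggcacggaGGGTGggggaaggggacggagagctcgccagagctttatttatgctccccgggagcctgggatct
The Kcnip2 window held CACCC 4 times and GGGCGG 2 times, and the Kcnd2 window held each 1 time. Among the other matched members, CACCC and GGGCGG counts were 3 and 3 in Kcnh2, and 1 and 2 in Kcnj2. Kcnd3 and Kcna5 each had 2 and 0. A link between motif number and direction was not tested. Of 32851 such windows in the table, 52% held CACCC at least 1 time and 32.7% held GGGCGG at least 1 time, so both motifs are common. Windows with several copies were not counted. ACANNTGT, a palindrome bound by Iroquois factors, was in neither window and in 6.31% of all windows.

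Kcna5, a pore of the slowly inactivating current, read 8.52, 7.96 and 8.05 in Des-/- and 8.21, 7.97 and 8.35 in TNFαDes-/-. The groups overlapped fully and the difference was 0.00 ± 0.17 (SE), with a range of -0.18 to 0.20 over the settings. Kcnj2, the inward rectifier, read 3.57 to 3.73 in Des-/- and 3.49 to 3.69 in TNFαDes-/-. That is below every array's median, so this probe set says nothing on whether Kcnj2 differed.

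Kcnk3, a leak channel, read 10.02, 9.75 and 9.56 in Des-/- and 9.56, 9.44 and 9.57 in TNFαDes-/-. The groups overlapped by 0.02, and the difference was -0.26 ± 0.13 (SE). Its second probe set gave the opposite sign, with 7.78, 7.15 and 7.39 against 7.65, 7.77 and 7.86 (0.32 ± 0.16), and the other read 8.29, 7.25 and 7.10 against 7.01, 7.26 and 7.10 (-0.43 ± 0.28). All 3 had overlapping groups, so the probe sets of Kcnk3 give no common direction. Quantile normalization and cyclic loess moved the main probe set to -0.50 and -0.52, past the threshold, as did quantile normalization without Des-/- replicate 1 (-0.51).

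**Figure D2:**
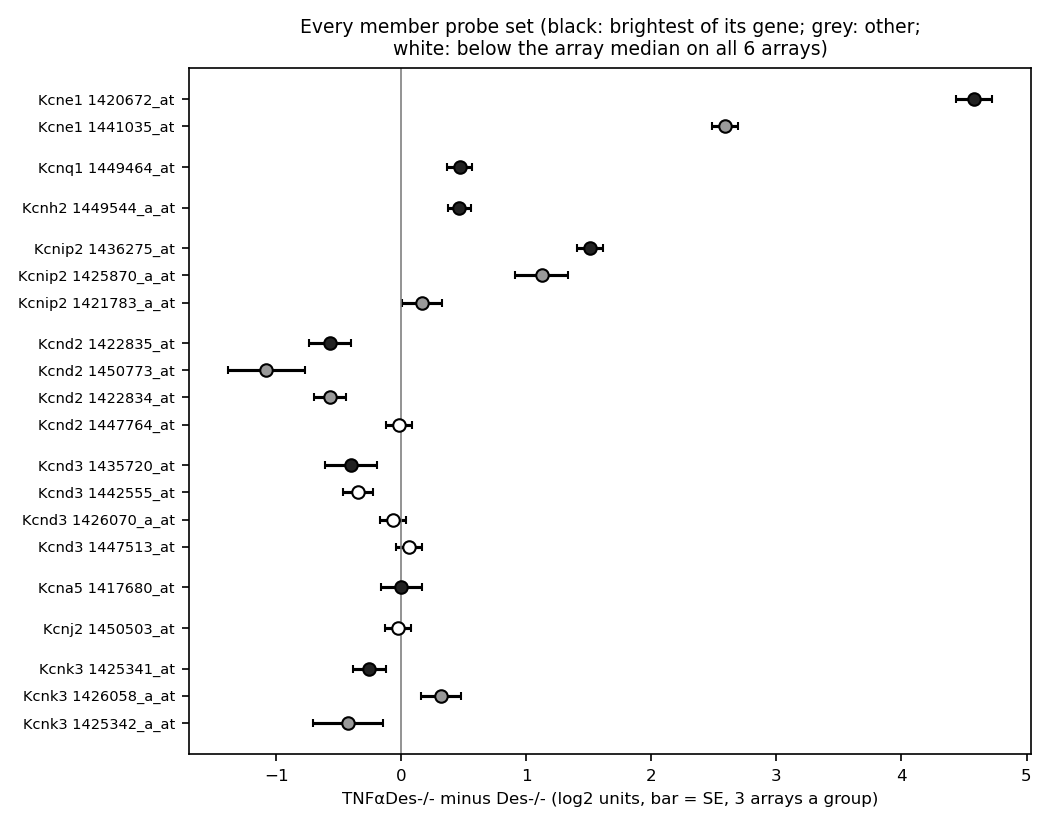
TNFαDes-/- minus Des-/- in log2 units for all 20 member probe sets, with the SE as a bar (3 arrays a group). Black points are the brightest probe set of a gene, grey points the others, and white points the 5 that lie below the array median on all 6 arrays. Both Kcne1 probe sets lie to the right, at 4.58 and 2.59, all 4 Kcnd2 probe sets lie to the left of 0, the dim one only at -0.02, and those of Kcnk3 fall on both sides.

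Within a group, the extreme array was often the same across member probe sets. The share over all probe sets was not taken, and probe sets of 1 gene are not independent. Of the 15 member probe sets not below the median on every array, Des-/- replicate 1 was the highest of its group on 10 and TNFαDes-/- replicate 2 the lowest of its group on 8. Kcnq1, Kcnh2 and the main probe set of Kcne1 were among the 5 exceptions in Des-/-, with Des-/- replicate 2 the highest. After quantile normalization 2 members passed the threshold in the higher direction, Kcne1 and Kcnip2, and 2 in the lower, Kcnd2 and Kcnk3, where 12.0% and 10.4% of all genes did so. Without TNFαDes-/- replicate 1 only 3 members passed, all higher, since Kcnq1 and Kcnd2 no longer did. In that setting 1518 of all 18193 genes were higher and 557 lower. Only Kcne1 and Kcnip2 passed under every one of the 17 alternative settings of the fit. The members were chosen with this contrast known, so these passes describe the settings and give no support for a difference.

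**Figure D3:**
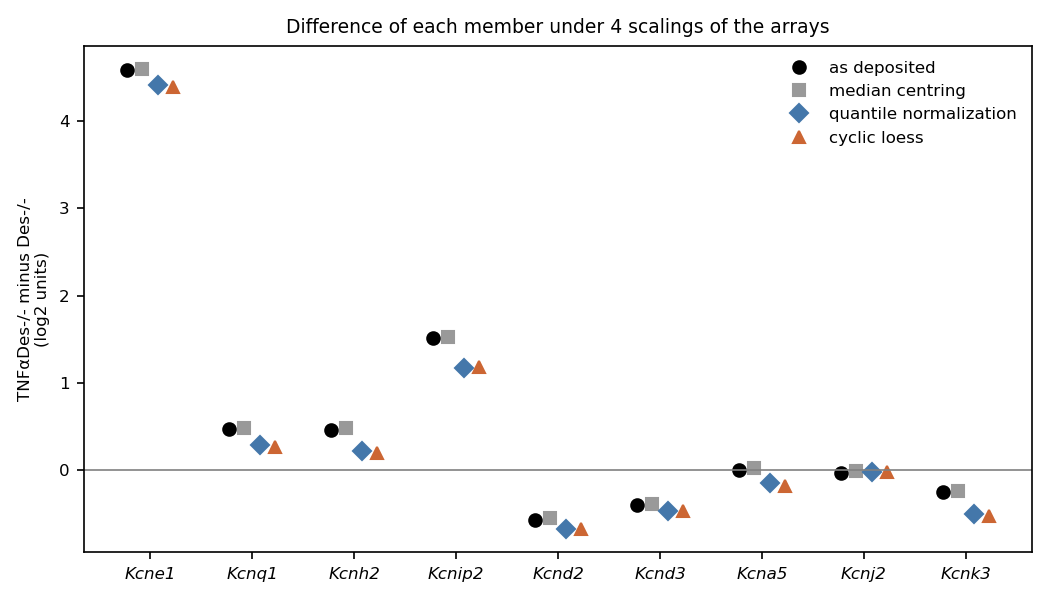
TNFαDes-/- minus Des-/- in log2 units for each member as deposited and under median centring, quantile normalization and cyclic loess. Quantile normalization moves Kcnq1 from 0.47 to 0.28, Kcnh2 from 0.46 to 0.22 and Kcnk3 from -0.26 to -0.50, while Kcne1 stays between 4.39 and 4.60.

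The genes whose 6 values, centred on each gene's own mean, lay nearest to those of Kcne1 were Krt18 (root mean square distance 0.15 log2 units), Myh7 (0.48), Krt8 (0.55), Rpgrip1 (0.62) and Plaat1 (0.65). Krt18 and Krt8 are the keratins of simple epithelia and Myh7 is the slow myosin heavy chain of the fetal and stressed heart. Nearest to Kcnip2 were Anapc15 (0.07), Rps4l (0.07), Cdkn1a (0.07), Cda (0.08) and Atf5 (0.08). Cdkn1a is a cell cycle inhibitor and Atf5 a stress-responsive transcription factor. With 6 arrays in 2 groups, such likeness mostly means a group difference of like size.

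Other potassium channel genes, listed by channel family, mostly did not pass the test, and those that did were mostly lower. Of 88 symbols 76 were measured and the others were not analysed here. Past the test were 1 higher (1.32%) and 12 lower (15.8%), where 15.2% of all genes were higher and 6.05% lower, and 63 did not pass. The median difference was -0.05, against 0.04 over all genes. After quantile normalization 1 was higher and 14 lower, against 12.0% and 10.4% of all genes. Without TNFαDes-/- replicate 1 or replicate 3, the counts were 1 higher and 7 lower. Of all 18193 genes, 1518 were higher and 557 lower without replicate 1, and 1475 and 593 without replicate 3. On every array, 33 of the 76 lay below the median, so many of these channels are not shown to be expressed at a measurable level here.

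The largest fall was in an inward rectifier. Of these 4 of 14 passed, all lower (28.6%, against 6.05% of all genes), and 5 of the 14 lay below the median on every array. Kcnj3, a pore of the acetylcholine-activated current that slows the heart, read 8.04, 8.02 and 8.16 in Des-/- and 6.49, 6.29 and 6.03 in TNFαDes-/-. The groups were far apart, and Kcnj3 was 3.49-fold lower (-1.81 ± 0.13 SE, limma adjusted p = 8.61e-05). Of its other probe sets, 2 gave -1.54 and -2.61, and the last lay below every array's median. Kcnj5, its partner in the same channel, read 8.54, 8.21 and 8.12 against 7.73, 7.24 and 7.68 (-0.74 ± 0.16 SE, adjusted p = 0.0133), and its other probe set gave -0.73. Both subunits of that channel were thus lower on every array of TNFαDes-/- than on any of Des-/-.

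These channels are enriched in atrial muscle, so atrial markers are given beside them. Of 7 atrial markers 1, Dkk3, was higher (1.08 ± 0.16 SE) and 0 were lower, and Nr2f1 lay below every array's median. The mean difference of the 7 was -0.03. Their mean log2 level was 9.30 to 9.72 in Des-/- and 9.38 to 9.48 in TNFαDes-/-. The atrial myosin light chain Myl7 stood at -0.44 ± 0.16, sarcolipin (Sln) at -0.31 ± 0.13 and Nr2f2 at -0.51 ± 0.18 (SE). Myl4 stood at 0.07 ± 0.19 and Bmp10 at 0.16 ± 0.12 (SE), and none of these passed the test. In whole heart RNA, fewer cells of a type and less RNA per cell cannot be told apart.

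Kcnj14, another inward rectifier, fell from 7.68, 7.60 and 7.65 to 6.66, 6.59 and 6.69 (-0.999 ± 0.09 SE, adjusted p = 0.000253). Kcnj8, the pore of the vascular ATP-sensitive channel, stood at 8.98, 8.69 and 8.62 against 8.25, 8.20 and 8.36 (-0.49 ± 0.12 SE, adjusted p = 0.022). Its call ended without Des-/- replicate 2 (-0.52) or TNFαDes-/- replicate 1 (-0.48), 2 (-0.45) or 3 (-0.53), with adjusted p up to 0.0824. Of 6 smooth muscle and pericyte markers 2, Myh11 and Notch3, were lower and 0 were higher. Mean log2 levels were 8.99 to 9.51 in Des-/- and 8.79 to 8.91 in TNFαDes-/-. The others did not pass, with Pdgfrb at -0.60 ± 0.20, Rgs5 at -0.02 ± 0.16, Cspg4 at 0.06 ± 0.12 and Tagln at 0.11 ± 0.13 (SE). Their part in the Kcnj8 difference was not tested.

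Of the 11 two-pore leak channels 1 (9.09%) rose and 1 (9.09%) fell, against 15.2% and 6.05% of all genes. Kcnk6 was the 1 potassium channel gene of the lists that rose. It read 6.78, 6.89 and 6.93 in Des-/- and 7.66, 7.61 and 7.81 in TNFαDes-/-, with separate groups (0.83 ± 0.10 SE, adjusted p = 0.000992). Kcnk13, which fell (-0.52 ± 0.10, adjusted p = 0.0071), lay below the median on every array, and the mean of its 2 probe sets did not pass (-0.23, adjusted p = 0.0697). Of 8 calcium- or sodium-activated channels 3 fell (37.5%, against 6.05% of all genes). Kcnn2, a small-conductance calcium-activated channel, read 6.16, 5.90 and 5.89 against 5.39, 5.05 and 5.35 (-0.72 ± 0.13 SE, adjusted p = 0.00599). Kcnn4, of the same family and known from blood and immune cells, gave -0.54 ± 0.10 (adjusted p = 0.007). Of 3 measured red blood cell markers 1, Alas2, was lower (-1.75 ± 0.19 SE) and 0 were higher, with mean log2 levels of 5.10 to 5.29 in Des-/- and 4.51 to 4.81 in TNFαDes-/-. Hba-a1 and Slc4a1 lay below every array's median. Of 6 macrophage markers 3 were higher and 1 lower. The part of blood and immune cells in the Kcnn4 difference was not tested. Kcnt1 (-0.44 ± 0.11, adjusted p = 0.024) lay below the median on every array, and its call ended without Des-/- replicate 2 (-0.35) or 3 (-0.46) or TNFαDes-/- replicate 1 (-0.45) or 3 (-0.41), and for the mean of its probe sets (-0.19).

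Among 26 other voltage-gated pores 0 rose and 3 (11.5%) fell, against 15.2% and 6.05% of all genes. Kcnv2, a silent subunit that modifies other pores, gave -0.81 ± 0.15 (SE, adjusted p = 0.00622) and lay below the median on 5 of 6 arrays. Kcna2 gave -0.56 ± 0.15 (adjusted p = 0.0288) and lay below the median on 2 of 6 arrays, and its call ended without Des-/- replicate 2 (-0.55) or 3 (-0.43) or TNFαDes-/- replicate 1 (-0.50) or 3 (-0.54), and for the mean of its 4 probe sets (-0.22). Kcnq5 (-0.30 ± 0.09, adjusted p = 0.0458) lay below every array's median, and its call ended without Des-/- replicate 2 (-0.33) or 3 (-0.30) or TNFαDes-/- replicate 1 (-0.30), 2 (-0.29) or 3 (-0.31). It also ended with median centring (-0.28), with quantile normalization without Des-/- replicate 1 (-0.24) and for the mean of its probe sets (-0.12). Kcna4, the pore of the slow transient outward current and chosen for mention after its values were seen, stood at -0.30 ± 0.10 below every array's median and did not pass (adjusted p = 0.0674).

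Of 17 other auxiliary subunits 0 rose and 1 (5.88%) fell, against 15.2% and 6.05% of all genes. The 1 was Kcnmb1 (-0.47 ± 0.14 SE, adjusted p = 0.0394). It lay below the median on every array, and its call ended without Des-/- replicate 1 (-0.46) or 3 (-0.35) or TNFαDes-/- replicate 1 (-0.41), 2 (-0.48) or 3 (-0.52). It also ended with median centring (-0.45), with quantile normalization without Des-/- replicate 1 (-0.42) and for the mean of its probe sets (-0.17), and its second probe set had the opposite sign (0.13). The relatives of the 2 auxiliary members did not pass. Kcne2 and Kcne3 lay below every array's median, and Kcne4 stood at -0.22 ± 0.12 (adjusted p = 0.251). Kcnip1 gave 0.02 ± 0.09 and Kcnip3 -0.01 ± 0.19, and Kcnip4 lay below every array's median. Apart from Kcnj8, subunits of ATP-sensitive channels did not pass either, with Kcnj11 at 0.23 ± 0.11, Abcc8 at 0.33 ± 0.11 and Abcc9 at -0.37 ± 0.18. These relatives were named after their values were seen.

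**Figure D4:**
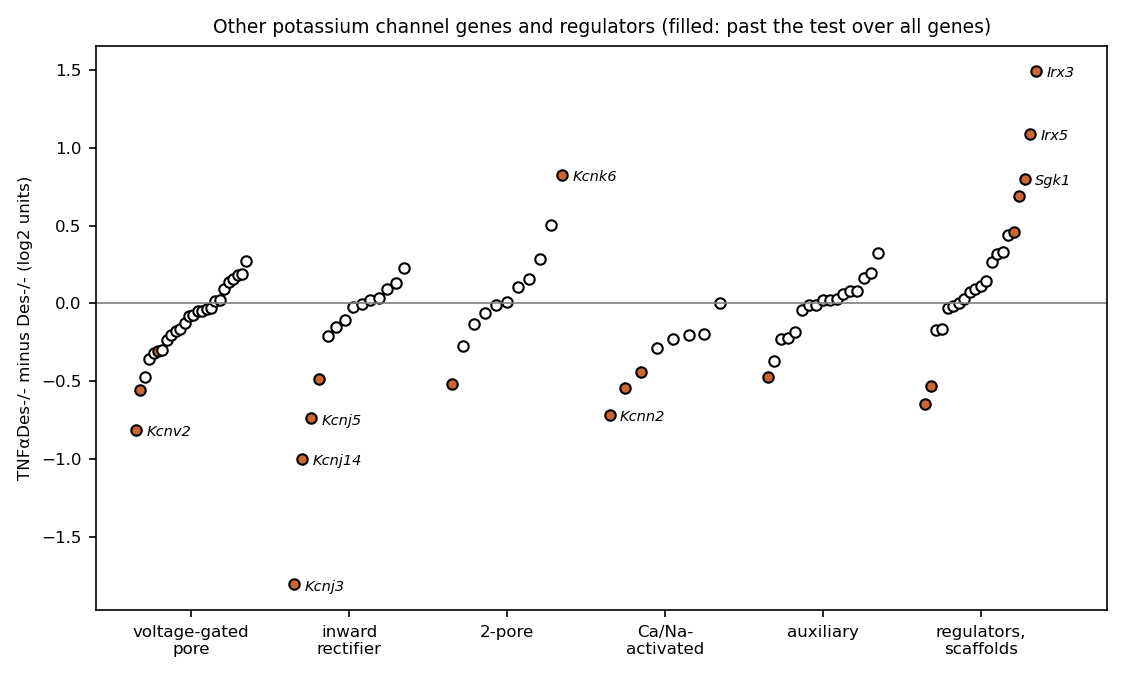
TNFαDes-/- minus Des-/- in log2 units for the 76 other potassium channel genes by family and for 21 regulators and scaffolds, sorted within each family. Filled points passed the limma test over all genes. Kcnk6 is the single filled point above 0 among channels, and Kcnj3 lies lowest at -1.81.

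Genes known to control or anchor these channels moved both ways. Of 23 genes 21 were measured, and 5 rose (23.8%) and 2 fell (9.52%), against 15.2% and 6.05% of all genes, with a median difference of 0.11. Without Des-/- replicate 2 or 3, or TNFαDes-/- replicate 1 or 3, 3 rose and 1 fell. In those settings 1475 to 1604 of all 18193 genes rose and 557 to 660 fell. Irx3, an Iroquois factor needed for fast conduction, read 9.30, 8.91 and 8.88 in Des-/- and 10.51, 10.47 and 10.59 in TNFαDes-/- (1.49 ± 0.13 SE, adjusted p = 0.000188). Irx5, which is known to repress Kcnd2 in mouse ventricle, read 6.83, 6.54 and 6.55 against 7.75, 7.60 and 7.84 (1.09 ± 0.12 SE, adjusted p = 0.000575). Both had separate groups and passed under all 17 alternative settings. Irx4, the ventricular member of that family, stood at 0.07 ± 0.10 and did not pass (adjusted p = 0.638).

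Nkx2-5, a cardiac transcription factor, rose by 0.69 ± 0.10 (SE, adjusted p = 0.00267; 0.43 after quantile normalization). Sgk1, a kinase that raises channel density at the membrane, rose by 0.80 ± 0.22 (adjusted p = 0.0335). That call ended without Des-/- replicate 2 (0.66) or 3 (0.67) or TNFαDes-/- replicate 1 (0.75) or 3 (0.73). The other calls are named outside the rule for named genes, after their values were seen. The caveolin Cav3 rose by 0.46 ± 0.10 (adjusted p = 0.0145), a call that ended with cyclic loess (0.24), with quantile normalization without Des-/- replicate 1 (0.25) and without Des-/- replicate 2 (0.42) or 3 (0.43) or TNFαDes-/- replicate 1 (0.44) or 3 (0.43). The transcription factor Mef2c fell by 0.65 on the log2 scale (adjusted p = 0.00658). The mean of its probe sets gave -0.69, just short of the threshold (adjusted p = 0.0532). The filamin Flna stood at -0.53 ± 0.16 (adjusted p = 0.0498), a call lost with median centring (-0.51) and without any 1 array other than Des-/- replicate 1 (-0.64 to -0.47). It was also just lost with a robust variance model (adjusted p = 0.0504) and with _a_at, _s_at and _x_at probe sets left out (adjusted p = 0.0517). Klf15, known to drive Kcnip2 in the mouse heart, read 10.04, 10.03 and 9.93 in Des-/- and 10.06, 10.04 and 10.23 in TNFαDes-/- and did not pass (0.11 ± 0.10, adjusted p = 0.483). Its direction turned after quantile normalization (-0.17, not past the threshold), and with Des-/- replicate 1 left out before that step it passed as lower (-0.29, adjusted p = 0.0492).

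**Figure D5:**
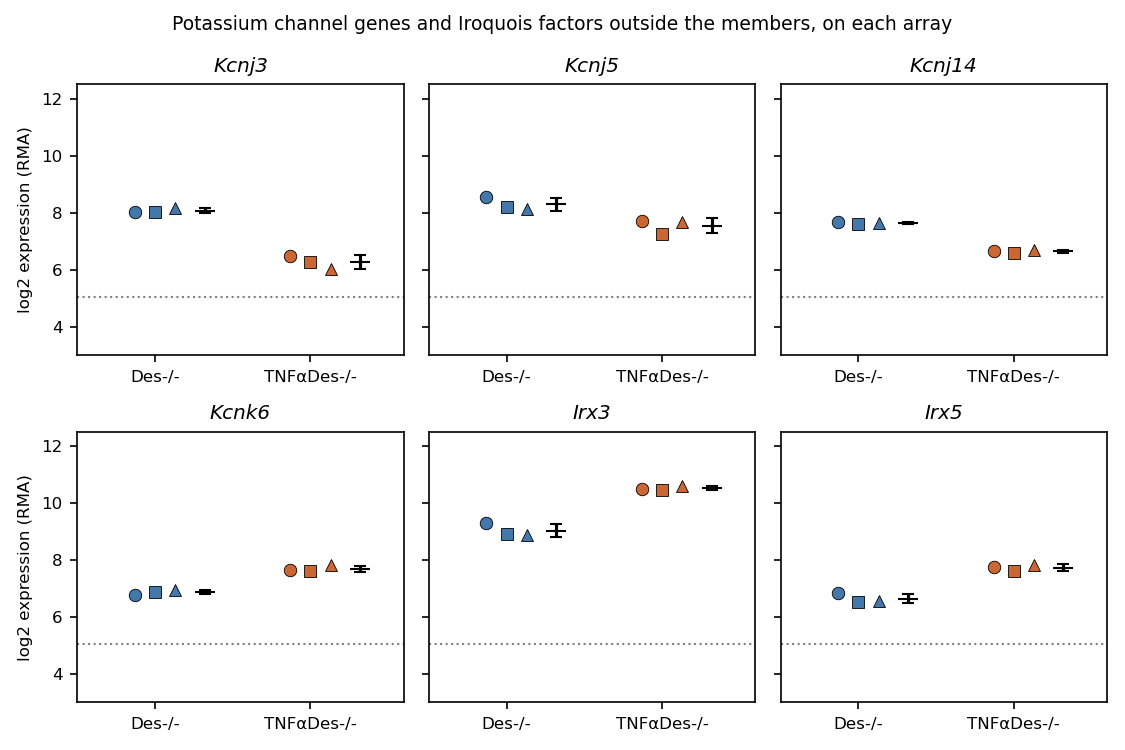
Log2 expression of 4 potassium channel genes outside the members and of Irx3 and Irx5 on each array, with symbols as in the plot of the members. Bars show the group mean and SD (n = 3) and the dotted line the mean of the array medians. Kcnj3, Kcnj5 and Kcnj14 are lower, and Kcnk6, Irx3 and Irx5 higher, on all 3 TNFαDes-/- arrays.

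Markers of heart cells were read beside these results. For these marker counts and those given above, the shares over all genes were 15.2% higher and 6.05% lower. Of 8 cardiomyocyte markers 0 passed in either direction, with mean log2 levels of 13.46 to 14.12 in Des-/- and 13.97 to 14.03 in TNFαDes-/-, so the labelled tissue was borne out. Of 4 ventricular markers 0 passed either (9.71 to 10.24 against 10.02 to 10.16). Of 7 measured nodal and conduction markers 2, Tbx3 (0.49 ± 0.11 SE) and Tbx18 (0.98 ± 0.21), were higher, with mean log2 levels of 4.96 to 4.98 in Des-/- and 5.04 to 5.23 in TNFαDes-/-. The defining Shox2, Isl1 and Gja5 lay below every array's median. Of 6 endothelial markers 3 were lower and 0 higher (8.53 to 8.90 against 8.32 to 8.34), and of 6 fibroblast markers 2 were higher and 0 lower (10.36 to 10.83 against 10.85 to 10.90). Among 6 macrophage markers 3 were higher and 1, Cd68, lower (8.59 to 8.96 against 8.73 to 8.81), and Itgam lay below every array's median. Their part in the channel differences was not tested.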

How the data were processed

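The deposited table holds log2 values, made by the authors with RMA, per the submitters' processing notes (version not given). The columns do not share 1 distribution, and no source used here says whether RMA's quantile step was run. Of 45101 probe sets, 64 are controls, 34945 have 1 gene symbol in the platform annotation, 932 several and 9160 none. Identifiers of 34741 were found in the RefSeq table of GRCm38.p6, which changed 0 symbols. Each of 18193 genes was represented by its brightest probe set, with no filter. Differences were fitted with limma 3.58.1 (lmFit, eBayes; R 4.3.3). P-values were adjusted by Benjamini and Hochberg's method across the 18193 genes, and genes under 0.05 passed. The fit was tested on simulated data. The number of arrays (3 a group) limits the precision. If the arrays of a group are repeats of the same pool, the SEs and p-values do not measure the spread between mice.

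The members and gene lists were chosen with earlier results of these data known. Named were the 9 members, up to 4 genes past the test per list with the largest differences, the 5 genes nearest in profile to Kcne1 and to Kcnip2, and markers. The 17 alternatives changed the scaling, the probe sets, the filter, the variance model, the weights, the block or the arrays used. SEs of secondary probe sets come from a fit over all probe sets. Figures were drawn with matplotlib 3.10.9.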

Additional observations from a re-analysis of the deposited data

How the results depend on the processing

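Of 18193 genes 3869 passed as deposited, 71.5% of them higher; after quantile normalization 4087 passed, 53.6% higher, after cyclic loess 4140 (51.8%), and with quantile normalization and Des-/- replicate 1 left out 4814 (48.9%). Leaving out 1 array gave 2068 (without TNFαDes-/- replicate 3) to 5814 genes (without Des-/- replicate 1), with 2232 without Des-/- replicate 2, 2220 without Des-/- replicate 3 and 2075 without TNFαDes-/- replicate 1. It gave 8 to 17 other potassium channel genes (13 as deposited) and 4 to 10 regulators and scaffolds (7 as deposited). Array weights, which favour the arrays most like their group, gave 8414, 25 and 12. With the replicate block 4278 genes, 14 other potassium channel genes and 7 regulators passed. Deviations of arrays with the same number correlated at 0.25, 0.31 and -0.30, so the numbers do not pair the arrays. Not every array correlated best with its own number. The block ended the call of Kcnq5 (adjusted p = 0.0855) and of no other named channel gene. Under the alternatives, 0 called members changed sign. Of the members' values under alternatives or on other probe sets, 140 stayed within 1 SD of the value as deposited and 22 did not. The filter, the variance models and the replicate block cannot change a difference, nor can the mean of probe sets for a gene with 1. Part of the 140, and of the kept signs and directions given here, was therefore fixed in advance. The 17 genes named from the channel and regulator lists kept their direction under every alternative in which they were tested, and passed in 247 of those fits and not in 36. Klf15, named outside the rule, turned from 0.11 to -0.17 after quantile normalization. Markers and genes of like profile were not followed across the alternatives. With 3 arrays a group and no detection calls, differences of dim probe sets such as that of Kcnj2 cannot be judged.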
